A study of Caenorhabditis elegans with 3 samples.

Results

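The genes described here encode splicing factors and related RNA-binding proteins of Caenorhabditis elegans. They are the protein-coding genes whose name starts with snr-, rsp-, prp-, sfa-, uaf-, hrp-, rnp-, sftb- or lsm- and a number by the Ensembl annotation of assembly WBcel235. The rule found 50 of 19973 protein-coding genes on the 6 chromosomes, and no measured value entered it. By name they were 7 snr- genes, 8 rsp- genes, 13 prp- genes, 9 rnp- genes, 7 lsm- genes, 3 sfa- or uaf- genes and 3 sftb- genes. No gene carried the hrp- stem, so the class of heterogeneous nuclear ribonucleoprotein (hnRNP) genes held 0 members and was described from newer gene names outside the rule.

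Binding was measured by chromatin immunoprecipitation and sequencing (ChIP-seq) of DRAP-1, named for DR1-associated protein, whose relatives in other animals pair with DR1 to form negative cofactor 2 and bind the TATA-binding protein at promoters. All 3 samples, biological replicates 2, 3 and 4 of 1 group, were whole mixed-stage embryos of both sexes, obtained by bleaching and labelled with an age of 3 hours. They came from 1 transgenic line, OP700, which carries wgIs700, a drap-1 transgene with a TY1, EGFP and 3xFLAG tag and an unc-119(+) rescue, on unc-119(tm4063). The sample descriptions name an antibody against GFP, while the antibody field gives drap-1. No untagged or untreated group was analysed, and whole embryos do not tell cell types apart.

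Pre-messenger RNA is spliced by the spliceosome, whose small nuclear ribonucleoprotein particles (snRNPs) are each built from a small nuclear RNA (snRNA) and a ring of Sm or Sm-like proteins. Proteins rich in serine and arginine (SR proteins) bind exons and help choose splice sites, while hnRNP proteins bind nascent transcripts and often act against them. In C. elegans a spliced leader snRNP also joins a leader onto many messenger RNAs, and genes that lie close behind one another on a strand are often transcribed together as an operon.

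The deposited data were 5 lists of regions on build ce11. The pooled list and each replicate list held 30000 candidate regions, peaks and background together, and the list thresholded on the irreproducible discovery rate (IDR) held 1468 peaks. Each region has a summit and a signal value from the authors' caller, on a scale that is not stated, so regions were ranked by signal within each list and signals were not compared between lists. A gene was called when an IDR summit lay within 500 bp of its annotated 5′ end. For each replicate the 1468 highest-signal regions were taken, a number equal to the length of the IDR list. No read counts are given, so the depth is unknown and every interval below covers the counting of genes only.

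Letters around the summits of 7 of the called members are shown first, because the positions and the neighbouring genes described below refer to them. They are 101 bases of WBcel235 from RefSeq, centred on the pooled summit and read 5′ to 3′ on the strand of the member. The peak of rsp-1 and rsp-2 is shown once, on the strand of rsp-1, and the other called members, snr-6 and rnp-6, are described by their values alone. Capitals mark matches to the consensus letters that were searched on both strands.
snr-1 (chrIV:17087572-17087672, plus strand): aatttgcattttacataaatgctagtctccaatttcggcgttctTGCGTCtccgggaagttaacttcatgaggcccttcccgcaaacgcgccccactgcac
snr-4 (chrV:11980054-11980154, minus strand): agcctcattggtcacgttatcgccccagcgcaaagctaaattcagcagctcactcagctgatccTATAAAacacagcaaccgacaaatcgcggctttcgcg
rsp-1 and rsp-2 (chrII:11453166-11453266, plus strand): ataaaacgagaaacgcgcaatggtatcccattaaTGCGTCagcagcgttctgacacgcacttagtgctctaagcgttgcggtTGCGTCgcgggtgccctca
rsp-6 (chrIV:7791373-7791473, minus strand): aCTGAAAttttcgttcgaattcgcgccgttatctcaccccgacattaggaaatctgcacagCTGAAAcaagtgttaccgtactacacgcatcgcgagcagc
prp-8 (chrIII:8163959-8164059, plus strand): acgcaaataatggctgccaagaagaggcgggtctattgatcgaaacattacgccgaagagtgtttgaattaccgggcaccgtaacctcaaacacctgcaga
prp-40 (chrIII:9521841-9521941, plus strand): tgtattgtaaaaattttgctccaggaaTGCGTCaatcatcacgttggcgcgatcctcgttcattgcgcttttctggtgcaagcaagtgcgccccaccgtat

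DRAP-1 was called at 9 of the 50 genes, through 8 peaks: snr-1, snr-4, snr-6, rsp-1, rsp-2, rsp-6, prp-8, prp-40 and rnp-6. This was 18.0% of the members (exact Clopper-Pearson 95% interval 8.58 to 31.4), beside 3.75% of all protein-coding genes (748 of 19973). A pooled candidate summit of any strength lay within 500 bp for 30 members (60%, interval 45.2 to 73.6), beside 31.3% of all protein-coding genes. Among the genes with such a candidate, 9 of 30 members (30.0%, interval 14.7 to 49.4) and 12.0% of all protein-coding genes (748 of 6247) were called. The members' share was therefore above that of coding genes on both bases. The difference was not tested, because the members were chosen with earlier results of these data known. With a window of 250 bp 4 members were called, beside 424 coding genes, and when peaks also had to be among the strongest regions of 2 given replicates 4 to 5 members were, beside 409 to 432 coding genes.

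Each replicate placed a larger share of the members than of coding genes among its strongest regions, but the number of members differed. Replicate 2 had a summit within 500 bp among its 1468 highest regions for 8 members (16%), beside 3.41% of coding genes. In replicate 3 it was 7 members (14%), beside 3.39%, and in replicate 4 it was 5 members (10%), beside 3.48%. The mean over replicates was 13.3% ± 3.06 (SD, n = 3) for the members and 3.43% ± 0.0445 for all coding genes, and each of the members' 3 values lay above those of the coding genes. The 5 members of replicate 4 were 2 Sm genes and 3 SR genes.

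**Figure D1:**
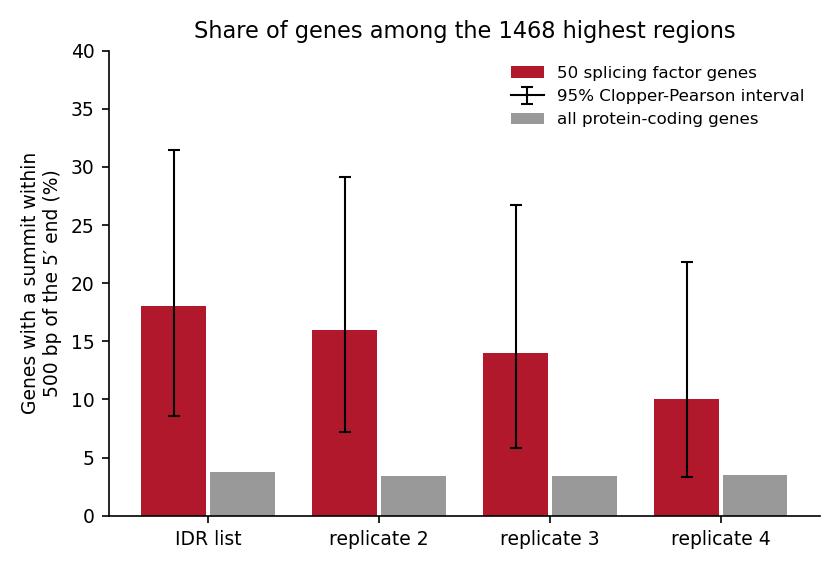
Share of genes (%) with a summit within 500 bp of the 5′ end in the IDR list and among the 1468 highest regions of each replicate, for the 50 splicing factor genes (red, with exact 95% Clopper-Pearson intervals) and all protein-coding genes (grey). The members' bars run from 10% in replicate 4 to 18.0% in the IDR list, and the grey bars lie between 3.39% and 3.75%.

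Sm core protein genes and SR protein genes held 6 of the 9 called members. Of the 7 Sm genes 3 were called (42.9%, exact interval 9.90 to 81.6), and of the 8 SR genes 3 were called (37.5%, interval 8.52 to 75.5), through 2 peaks. Of the 35 members of the other classes, 3 were called. They were 2 of 13 prp- genes (15.4%, interval 1.92 to 45.4) and 1 of 9 rnp- genes (11.1%, interval 0.281 to 48.2). None of the 7 Sm-like genes was called, an interval that reaches 41.0%, nor any of the 3 sfa- and uaf- genes or the 3 sftb- genes, where it reaches 70.8%. These intervals overlap widely, and with so few genes a class no order of the classes can be read from them. With a window of 250 bp no Sm gene was called, with the nearest gene of any kind 1 was, and with the first gene of a run in place of each gene, as described below, the other classes held 9 of 15 called members.

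Pooled candidates of any strength, which 31.3% of all coding genes had, were found in every class. Each sftb- gene had one, as did 6 of 7 Sm genes, 6 of 8 SR genes, 5 of 7 Sm-like genes and 7 of 13 prp- genes, 2 of 9 rnp- genes and 1 of 3 sfa- and uaf- genes. Whether the classes differ was not tested. The median pooled rank of those candidates was 1977.5 of 30000 for Sm genes, 5340.5 for SR genes, 5354 for prp- genes, 7393 for Sm-like genes, 4090 for sftb- genes and 7858.5 for rnp- genes, and the single sfa- or uaf- candidate had rank 17027. Counting the U1 and U2 snRNP protein genes rnp-2, rnp-3 and rnp-7 as snRNP genes with the Sm genes gave 3 called of 10.

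**Figure D2:**
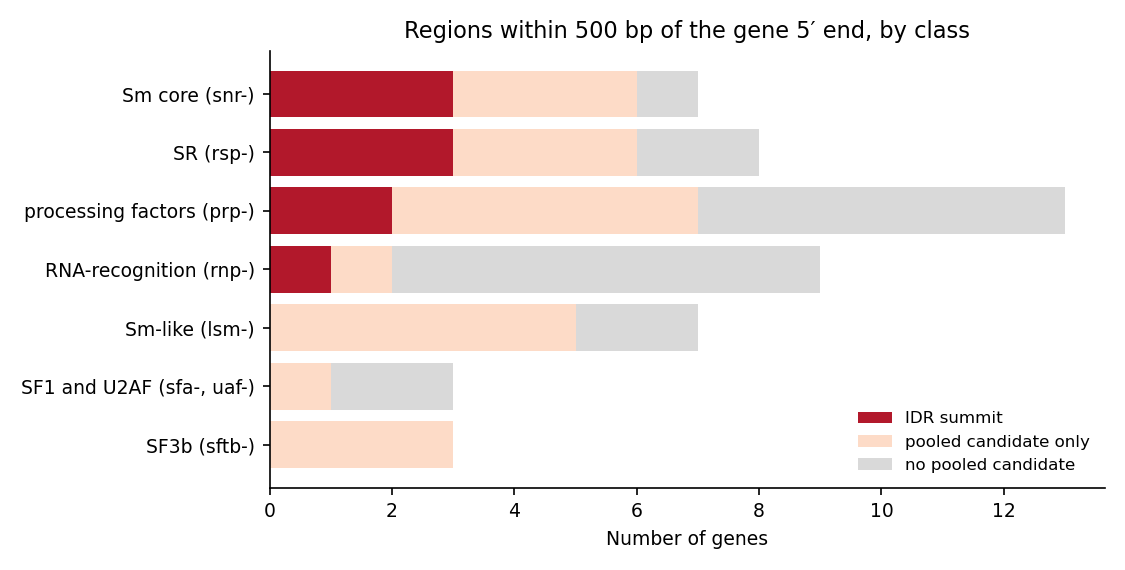
Number of genes in each name class with an IDR summit within 500 bp of the 5′ end (red), with a pooled candidate only (pale) and with neither (grey). The Sm core and SR classes have 3 called genes each, and the Sm-like, SF1 and U2AF, and SF3b classes have 0.

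Among the Sm genes, which encode the Sm ring found in snRNPs of the major spliceosome, snr-1 had the strongest peak. It encodes Sm D3 (WBGene00004914, IV from 17088049 to 17088946, plus strand), and its peak at IV from 17087532 to 17087729 had a pooled signal of 340.7 and rank 189. The ranks were 85, 310 and 361 in replicates 2, 3 and 4, with signals of 185.8, 98.2 and 65.1. All 3 replicates thus placed it high, and their summits lay within 5 bp of the pooled one. The summit was 427 bp upstream of snr-1 and 184 bp upstream of snx-13, a sorting nexin gene on the other strand, so it lay between both genes and nearer to snx-13.

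The snr-4 gene, which encodes Sm D2 (WBGene00004917, V from 11978508 to 11979723, minus strand), had a peak at V from 11979962 to 11980159 with signal 302.5 and rank 252. Its ranks in replicates 2, 3 and 4 were 220, 332 and 238, with signals of 132.0, 95.1 and 78.1, all inside the 1468 highest of their lists. The summit lay 381 bp upstream of snr-4 and 14 bp upstream of the snRNA gene C52E4.8, which runs the other way from 11980118 to 11980261. The letters TATAAA, printed in capitals in the snr-4 sequence, end 28 bp before the 5′ end of that snRNA gene and stand on the strand of snr-4. The 144 bases of C52E4.8 occur 2 times in the genome, and a trimmed part of 104 bases occurs 4 times. The peak covers the start of the gene, and how reads were assigned between the copies is not stated. Without summits within 100 bp of a tRNA, snoRNA or snRNA gene the snr-4 call was lost.

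At snr-6, which encodes Sm E (WBGene00004919, III from 12429172 to 12429629, minus strand), the peak at III from 12429679 to 12430102 had signal 131.1 and rank 1366. It was the weakest called member, just inside the IDR list, whose lowest signal was 126.7. The ranks were 1111 in replicate 2, 4254 in replicate 3 and 11116 in replicate 4, with signals of 68.6, 32.9 and 17.5. Only replicate 2 placed it among its 1468 highest regions. The summit lay 262 bp upstream, and no other gene had its 5′ end within 500 bp of it.

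The other Sm genes were not called. The candidate of snr-2, which encodes Sm B, had rank 2589 and signal 98.5, with ranks of 14792, 2448 and 1712 in the replicates, at an offset of −406 bp from snr-2 and 60 bp from the 5′ end of W08E3.4. That of snr-7, which encodes Sm G, had rank 6811 and lay in an exon of Y71F9B.6. The candidate of snr-3 had rank 9512 and was shared with the SR gene rsp-5, whose 5′ end it lay closer to. No pooled candidate was found at snr-5, which encodes Sm F.

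Of the SR protein genes, rsp-1 (WBGene00004698, II from 11453362 to 11455864, plus strand) and rsp-2 (WBGene00004699, II from 11451441 to 11452955, minus strand) stand head to head and shared 1 peak. It ran from 11453004 to 11453427 with a signal of 159.8 and rank 888, and its summit lay 146 bp upstream of rsp-1 and 261 bp upstream of rsp-2. The ranks were 1112, 894 and 1018 in replicates 2, 3 and 4, with signals of 68.6, 59.7 and 40.22. The 3 replicates agree within a narrow range of ranks here, all inside the 1468 highest. Because both genes use the same summit, they count as 1 binding event and as 2 called members.

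At rsp-6 (WBGene00004703, IV from 7789847 to 7791229, minus strand), the worm relative of the small SR protein SRSF3, the peak from 7791211 to 7791634 had signal 140.6 and rank 1169. Its ranks were 3053, 1192 and 916 in replicates 2, 3 and 4, with signals of 47.8, 52.6 and 42, so replicate 2 lay outside its 1468 highest regions. The summit lay 194 bp upstream of rsp-6, the only gene with a 5′ end within 500 bp.

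The remaining SR genes had weak candidates or none. At rsp-3, the relative of SRSF1, the candidate had rank 12813 and lay nearer to spin-4, and at rsp-5 it was the one shared with snr-3 at rank 9512. The relative of SRSF2, rsp-4, had a candidate of rank 29365 in an exon of ndx-6, with no replicate summit within 100 bp. Replicate 4 alone had a summit within 500 bp of the rsp-4 5′ end, of rank 6467 and 483 bp inside the gene. No pooled candidate was found at rsp-7 or rsp-8.

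**Figure D3:**
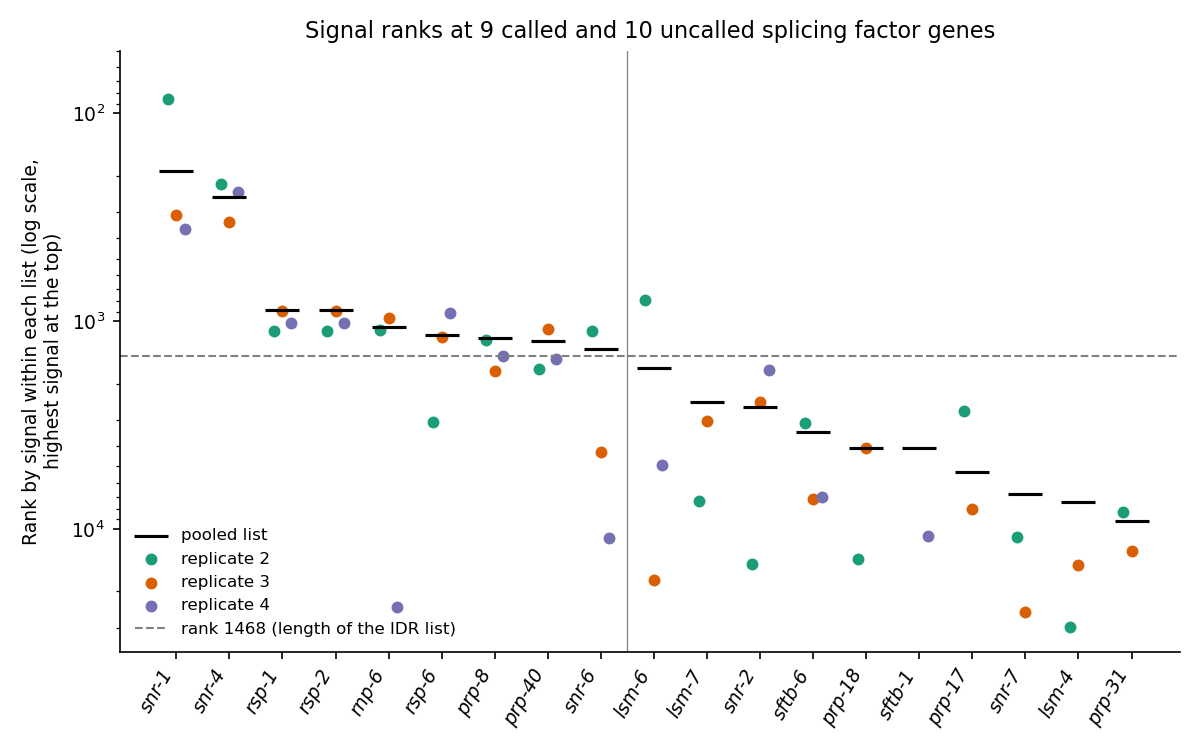
Rank by signal (log scale, highest signal at the top) at the 9 called members and the 10 uncalled members with the highest pooled signal, in the pooled list (black bars) and in replicates 2, 3 and 4 (dots, for summits within 100 bp of the pooled one; a missing dot means none was found). The dashed line is rank 1468, and all 3 dots lie above it for snr-1, snr-4, rsp-1 and rsp-2.

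Among the spliceosome assembly and processing factors, prp-8 and prp-40 were called, both near the end of the IDR list. PRP-8 is the large scaffold protein of the U5 snRNP at the heart of the spliceosome. Its gene (WBGene00004187, III from 8164373 to 8172710, plus strand) had a peak from 8163797 to 8164220 with signal 138.7 and rank 1208, 364 bp upstream. The replicate ranks were 1240, 1738 and 1469, with signals of 65.9, 45.2 and 35.1, so replicate 4 lay 1 rank outside its 1468 highest regions. PRP-40 is a WW domain protein whose yeast relative belongs to the U1 snRNP. Its gene (WBGene00014218, III from 9522075 to 9525454, plus strand) had a peak from 9521679 to 9522102 with signal 137.4 and rank 1241, 184 bp upstream and 431 bp from the 5′ end of clu-1 on the other strand. The replicate ranks were 1698, 1096 and 1519, with signals of 58.7, 54.5 and 34.7. For both genes the replicates straddled the limit of 1468, with 1 of 3 inside it.

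The other prp- genes were not called. Those with candidates were prp-18, a factor of the second splicing step (rank 4064, in an exon of mccc-1), prp-17, also of the second step (5354, in an exon of F49D11.14), prp-31 of the U4/U6 snRNP (9190), prp-21 (18945, in an intron 229 bp inside its own gene) and prp-9 (24234, with no replicate summit within 100 bp). No pooled candidate lay at prp-3, prp-4, prp-6, prp-19, prp-38 or prp-39. Of these, prp-6, prp-19 and prp-38 had no candidate within 500 bp in any replicate either.

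The called rnp- gene was rnp-6 (WBGene00004389, I from 3539553 to 3546910, minus strand), the relative of PUF60, which helps recognise the polypyrimidine tract before the 3′ splice site. Its peak from 3546836 to 3547259 had signal 146.4 and rank 1073, with ranks of 1107, 971 and 23804 in replicates 2, 3 and 4 and signals of 68.7, 57.3 and 12.4. Replicates 2 and 3 placed it inside their 1468 highest regions, while replicate 4 placed it near the end of its list. The summit lay 138 bp upstream of rnp-6 and 23 bp upstream of rde-10, an RNA interference gene on the other strand. Only rnp-2, which encodes an RRM protein, had another candidate in this class (rank 14644, in an exon 190 bp inside the gene). No pooled candidate lay at rnp-1, rnp-3, rnp-4, rnp-5, rnp-7, rnp-8 or rnp-9.

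The 7 Sm-like genes, whose products bind U6 snRNA or take part in messenger RNA decay, had 5 candidates and no call. The strongest was at lsm-6, with pooled signal 118.9 and rank 1687, which made it the first member outside the IDR list. Its ranks were 793, 17660 and 4907 in replicates 2, 3 and 4, with signals of 77.8, 19.0 and 23.2, so replicate 2 alone placed it high. At lsm-7 the candidate had rank 2464 and lay 16 bp from the 5′ end of dnc-1, and at lsm-4 it had rank 7393 in an intron of ada-2. The candidates of lsm-3 (22541) and lsm-5 (23050) were weak, and lsm-1 and lsm-8 had none in the pooled list.

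No gene of the sfa-, uaf- and sftb- names, whose products act at the branch point and the 3′ splice site, was called. The U2AF small subunit gene uaf-2 had a candidate of rank 17027 at 24 bp upstream, and neither uaf-1, which encodes the large subunit, nor sfa-1, which encodes the branch point binding protein SF1, had one. At the genes of the U2 snRNP part SF3b, the candidates had ranks of 4090 for sftb-1, 3431 for sftb-6 and 22902 for sftb-2. All 3 summits lay nearer to another gene, R10E4.1, luc-7L3 and W03F9.2.

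Repeatability separated the called members into 3 levels. A summit among the 1468 highest regions of every replicate, within 100 bp of the pooled summit, was found for snr-1, snr-4, rsp-1 and rsp-2, which are 4 of 50 members (8%, exact interval 2.22 to 19.2) beside 1.71% of all coding genes (342 of 19973). The peaks of rsp-6 and rnp-6 met this in 2 of 3 replicates, and those of prp-8, prp-40 and snr-6 in 1 of 3. Every one of the 9 had a summit within 100 bp somewhere in the 30000 regions of each replicate. Each replicate also contributed reads to the pooled regions, so these counts describe repeatability and are no separate evidence.

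The 8 peaks at called members had pooled signals of 131.1 to 340.7 with a median of 143.5. The 589 IDR peaks within 500 bp of a coding gene's 5′ end ran from 126.7 to 930.8 with a median of 178.3. So although members were called more often than coding genes as a whole, 6 of their 8 peaks were weaker than the median coding peak.

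All 9 called members had the summit upstream of their 5′ end, from 427 bp to 138 bp upstream, with a median offset of −261 bp. Over the 748 called coding genes the median was −199 bp, with 87.6% upstream. All 8 summits lay outside coding genes. Of the 21 members with an uncalled candidate, 18 also had it upstream (85.7%, median −226 bp), whereas the 5499 coding genes with an uncalled candidate had it upstream in 53.1% of cases, with a median of −28 bp. Annotated 5′ ends need not be where transcription starts, since many worm messenger RNAs lose their first part to the spliced leader.

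**Figure D4:**
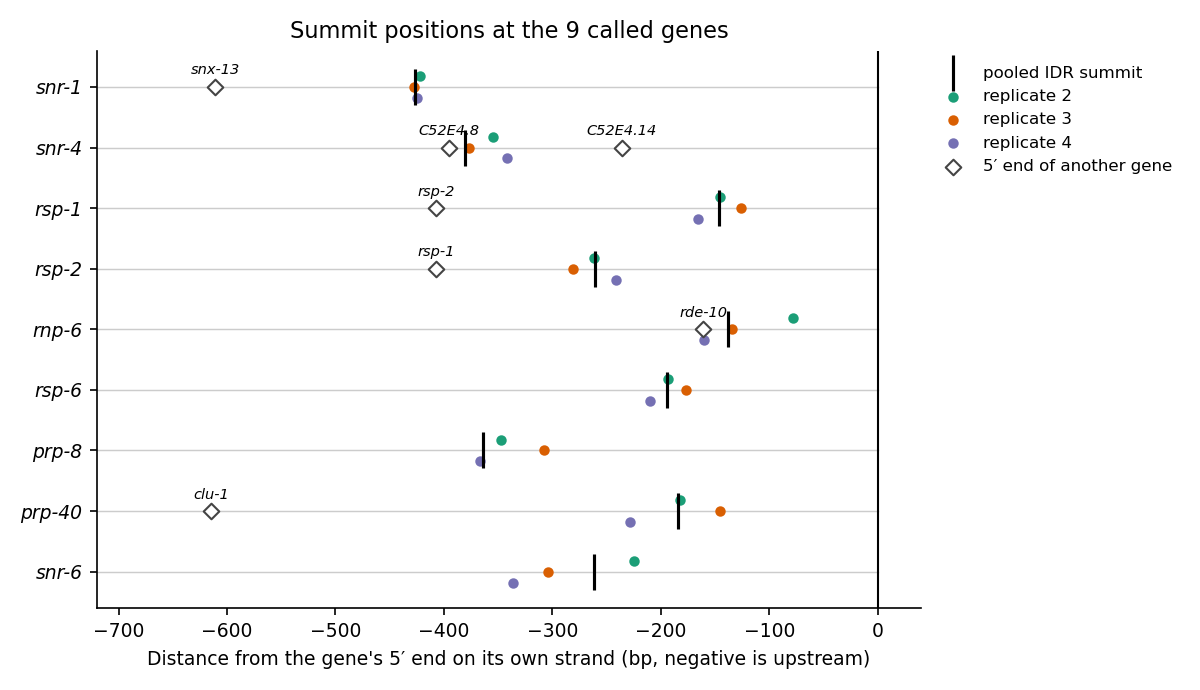
Distance of the summit from the 5′ end (bp, negative is upstream) at the 9 called members, for the pooled IDR summit (black bar) and each replicate (dots), with the 5′ ends of other genes that lie within 500 bp of the summit (diamonds). Every summit is upstream, and those of snr-1, snr-4, rsp-2 and rnp-6 lie nearer to a diamond than to the member itself.

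At 4 of the 9 called members the peak lay nearer to another gene. The summit was closer to another gene's 5′ end at snr-1 (snx-13), snr-4 (C52E4.8), rsp-2 (rsp-1) and rnp-6 (rde-10). With each peak given only to the nearest gene of any kind, 5 of 9 members stayed called, rsp-1, rsp-6, prp-8, prp-40 and snr-6, beside 460 of 748 coding genes, so most calls, but not all, were kept in both. A summit between 2 genes cannot be assigned to either from these lists.

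Some members lie behind another gene on the same strand. With at most 500 bp between the genes, or an overlap of up to 50 bp, 13 of the 50 members (26.0%) were so placed, beside 18.7% of coding genes. No operon annotation was used, and this spacing rule was added after seeing the data. At their own 5′ ends, 1 of the 13 was called (7.69%), rsp-6, and 8 of the 37 other members were (21.6%). For coding genes these shares were 2.19% and 4.10%, and the difference was not tested. Of the 13, 7 others had an IDR summit at the first gene of the run (53.8%), beside 7.70% of the 3738 coding genes placed in this way. With at most 200 bp between genes it was 5 of 8 (62.5%), beside 10.1% of 2031 coding genes. Taking the first gene of the run for these 13 and the gene itself for the others gave 15 of 50 members called, beside 4.78% of all coding genes (954 of 19973).

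Some of these runs pair splicing genes with each other. The gene of the U1 protein of 70 kDa, rnp-7, lies 4 bp behind syf-2, a splicing factor gene called through a peak of rank 846 and signal 163.2. The summit of that peak lay nearer to the 5′ end of another coding gene, K04G7.1, than to that of syf-2, so it cannot be assigned to syf-2 alone. The tri-snRNP factor gene prp-38 lies 106 bp behind plrg-1, which encodes a subunit of the Prp19 complex, and the plrg-1 peak (rank 141, signal 390.8) was stronger than that of any member. Behind sqd-1, an hnRNP gene whose peak had rank 405 and signal 231.6, lies lsm-8 at 103 bp. The other first genes were hmgs-1 for prp-39 (rank 992), ubc-3 for lsm-6 (rank 1038), Y62E10A.23 for lsm-3 (rank 361) and fbxl-3 for rsp-4 (rank 884), the last with a peak that mog-5 shares. The sfa-1 gene lies in a run that starts at uaf-2, and rnp-3 lies 72 bp behind rnp-2, with no call at either first gene. Whether these genes are transcribed from the distant peak was not tested.

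hnRNP protein genes under their present names were taken from a list of 12 genes outside the naming rule. Of these 2 were called (16.7%, exact interval 2.09 to 48.4), beside 3.75% of coding genes, and 8 had a pooled candidate. The sqd-1 peak (IV from 6323646 to 6324069) had replicate ranks of 375, 364 and 847 and a summit offset of −316 bp. The hrpk-1 gene, which encodes the hnRNP K homologue, had a peak of rank 593 and signal 194.6 with replicate ranks of 650, 622 and 999, its summit 248 bp inside the gene. Both were thus found among the 1468 highest regions of every replicate. The called share was 3 of 7 for Sm genes, 3 of 8 for SR genes and 2 of 12 for hnRNP genes, and the intervals overlap.

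Other genes, mostly of splicing and messenger RNA processing, were also described from a list. It held 79 names, of which 73 were matched to a coding gene, among them dnj-27, a DnaJ family gene that is no splicing factor and was not called. Of the 73, 10 were called (13.7%, exact interval 6.77 to 23.8), beside 3.75% of all coding genes, and 54 had a candidate, beside 31.3%. At 250 bp 5 were called, and 3 to 4 when a replicate was left out. Among the stronger ones were plrg-1 (replicate ranks 143, 194 and 148) and snrp-40.1, a U5 snRNP protein gene (rank 639, signal 186.1). Weaker peaks were those of hel-1, the helicase that relates to DDX39B (rank 811), syf-2 (846), and mog-5 (884), which encodes a DEAH helicase. The weakest 4 were grld-1 (954), spk-1, the SR protein kinase gene (1043), smu-1 (1083) and mog-4, another helicase gene (1156). Of the 10, the peaks of 3 were among the 1468 highest regions of every replicate. With each peak given only to the nearest gene of any kind, 8 of the 10 stayed called. The syf-2 summit lay nearer to K04G7.1, and the grld-1 summit nearer to the noncoding RNA gene F29C4.9. The peaks of plrg-1, syf-2 and mog-5, like that of sqd-1, also gave first-gene calls above, so those counts share peaks.

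The consensus sequences were counted at the member peaks, and whether their shares differ from those of other coding peaks was not tested. Within 50 bp of the 8 summits, 1 peak held TATAAA (snr-4) on either strand, beside 3.57% of the 589 called coding peaks and 5.92% of 5016 uncalled coding candidates. CCGCCC was in 1 of 8, beside 11.0% and 4.80%. TTTCAG was in 1 of 8, at rsp-6 with 2 copies, beside 4.75% and 14.1%. None of the 8 held TATATA (1.02% and 1.56%), GAGAGA (20.4% and 11.0%), GCGCGAAA (1.87% and 0.837%) or TTTTTTTT (1.70% and 4.96%). TGCGTC, noticed in the sequences around these summits and therefore no independent count, was in 4 of 8 peaks, among them those of snr-1, rsp-1 with rsp-2, and prp-40, beside 17.1% and 5.84%. The match lay 3 bp from the summit at snr-1 and 20 bp at prp-40, and at 13 bp and 35 bp at the peak of rsp-1 and rsp-2. The member peaks are among the 589, and a match describes the letters only.

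The median GC content of the 101 bases was 48.5% at the 8 member peaks, with a range of 40.6% to 53.5%. It was 50.5% at the called coding peaks and 44.6% at the uncalled candidates.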

How the data were processed

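DRAP-1 ChIP-seq was measured in 3 biological replicates of 1 group of embryos. Per the deposited README texts, the authors made a list of peaks and background from each replicate's alignment with 2 control files, a pooled list from all 3 alignments and an IDR-thresholded list, all on ce11. Peak caller, version and IDR threshold: not given in the sources used here. The deposited signal values have no stated scale and were used for ranks within a list, and the deposited −log10 q-value column did not enter the ranks. Since the lists differ in scale and hold no depth, weak binding and few reads cannot be told apart.

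Summits were matched to gene 5′ ends of the Ensembl annotation of WBcel235 (the same assembly as ce11) within 500 bp, taking the strongest. Replicate summits counted as shared within 100 bp. RefSeq supplied the symbols of neighbours, and 46881 of 46890 genes could be paired through their WormBase identifiers. Shares have exact Clopper-Pearson 95% intervals. There is 1 group, so no test between groups was run, and no p-value is given. Matching was tested on planted summits. Python 3.11.15, NumPy 2.4.6, SciPy 1.17.1 and matplotlib 3.10.9 were used.

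The members, classes, lists and consensus letters were chosen with earlier results of these data known. Named genes were every called member, the 10 uncalled members with the highest pooled signal, all others by name, and the called genes of the other lists, apart from what is not reported here. Of the 79 other genes, 6 had no coding match, the snRNA gene sup-39 among them. Alternatives were the window, the set of 5′ ends, nearest-gene assignment, summits beside short noncoding RNA genes, the 734 strongest IDR peaks, the number of regions and sharing distance per replicate, and each replicate left out. First genes of runs, their 200 bp gap and TGCGTC were added after seeing the data.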

Additional observations from a re-analysis of the deposited data

How the results depend on the processing

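The number of called members, 9, was 4 with a window of 250 bp, 5 with each peak given to the nearest gene of any biotype, 2 among the 734 strongest IDR peaks (snr-1 and snr-4), 4 with only IDR peaks found in every replicate, and 15 with the 5′ end of the first gene of an operon-like run, which was added later. Leaving out a replicate, where a peak had to be among the 1468 highest regions of both others, a demand the IDR list itself did not make here, gave 4 to 5. The background count over all coding genes fell as well, from 748 to 424, 460, 384 and 342 under the first 4 of these, but was 954 with first genes, and to between 409 and 432 without a replicate. Called Sm genes went from 3 to 0 at 250 bp and to 1 with the nearest gene, and called SR genes from 3 to 0 among the 734 strongest peaks. The other classes went from 3 to 5 at 1000 bp (lsm-3 and prp-19 were gained), to 9 with first genes, to 0 among the 734 strongest peaks and with peaks found in every replicate, and to between 0 and 1 without a replicate. Candidates, 30 members, were 17 at 250 bp and 19 with the nearest gene. The 4 members found in every replicate became 1 at 250 bp and with the nearest gene of any biotype, and 2 with the nearest coding gene or 734 regions per replicate. The median offset moved from −261 bp to −404 bp among the 734 strongest peaks. Called genes of the other splicing list, 10, were 5 at 250 bp, 3 among the 734 strongest peaks, 3 with peaks found in every replicate and 3 to 4 without a replicate. Called hnRNP genes, 2, were 1 at 250 bp and 1 with first genes. Some of these falls follow from the construction of the setting, since it leaves fewer peaks or a smaller window, and no cause beyond that was tested. Of 11 settings that keep a call per gene, rsp-1 was called in 10, snr-1 and snr-4 in 8, and rnp-6, prp-8 and snr-6 in 5. No paired analysis was possible because there is 1 group of replicates. Depth, and with it the chance of finding a weak region in a replicate, is unknown.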
